A study of Homo sapiens with 12 samples.

Results

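The 41 genes described here serve the making of ribosomes: subunits and partners of RNA polymerase I, the transcription factor MYC, abundant nucleolar proteins, the proteins of the guide RNA particles that modify ribosomal RNA, and assembly factors of the small and large subunit. They were chosen by name from a table of 58735 genes, and all 41 symbols were found. Messenger RNA was sequenced from TFK1, a human bile duct carcinoma (cholangiocarcinoma) cell line whose genotype is given as WT, in 4 groups with 3 samples each. They were cells irradiated with 6 Gy, cells given 1.62 ng/ml nab-paclitaxel (albumin-bound paclitaxel, a drug that stabilises microtubules), cells given both agents at these doses (combination), and control cells given neither. RNA was taken 24 h after treatment in every group, and the stated purpose was to learn how the drug raises sensitivity to radiation. All 12 samples come from 1 cell line, and nothing beyond the words biological replicate describes how the cultures were kept apart, so p-values measure the spread between these samples.

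Ribosome production begins in the nucleolus, where RNA polymerase I copies the ribosomal DNA into a long precursor RNA. Small nucleolar RNAs (snoRNAs) bound to a few core proteins guide methylation and pseudouridylation of that precursor, while a large set of helicases, scaffolds, nucleases and export factors folds, cuts and assembles it with ribosomal proteins into the subunits. MYC is a known activator of many of these genes, and output of the pathway usually follows the growth rate of a cell. The ribosomal RNA itself was not measured, because these were mRNA libraries.

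Levels are in FPKM, fragments scaled to the length of the gene and to the depth of the library, so they can be compared between genes. A library held between 14840283 and 17992242 fragments assigned to genes. The total that scaled the FPKM was 1.040, 1.064 and 1.042 times these fragments with radiation and 0.922, 1.006 and 1.000 with nab-paclitaxel. It was 1.032, 0.989 and 0.999 times in the combination and 1.018, 0.968 and 1.019 times in control libraries. A larger total lowers every FPKM of its library. Control 2, nab-paclitaxel 1 and combination 2 stood apart from the other libraries of their group on the second principal component of all tested genes, at -30.6, -28.6 and -3.64. The counts of members called in each comparison are therefore also given without these 3 deviating libraries, an alternative chosen after seeing the data. Mitochondrial mRNAs took 12.4% to 13.6% of fragments in irradiated libraries, 9.23% to 12.003% with nab-paclitaxel, 9.81% to 12.9% in the combination and 11.2% to 13.6% in control libraries. Of 7 biliary epithelial markers 6 averaged at least 1 FPKM, led by the keratin KRT19 at 419 FPKM. Their summed level was 1104 to 1181 FPKM with radiation, 1183 to 1332 with nab-paclitaxel, 1345 to 1702 in the combination and 719 to 905 in control libraries. KRT8, KRT18, KRT19 and SOX9 lay above all control libraries in every treated library. CDH1 lay below them in every treated library, at 47.7 to 50.1 FPKM in control and 36.4 to 39.1 in the combination. EPCAM lay below control with radiation only (87.7 to 92.5 against 102 to 112 FPKM), and KRT7 stayed at 0.304 to 0.879 FPKM. At least 1 FPKM on average was reached by 0 of 7 macrophage markers and 0 of 8 lymphocyte and endothelial markers. It was reached by 1 of 7 fibroblast markers, COL1A1 at 5.70 FPKM. In bulk RNA fewer cells of a kind and less RNA per cell cannot be told apart, and the part of marker or mitochondrial shares in the results below was not tested.

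Most of these genes were well expressed. The mean over the 12 libraries ranged from 0.288 FPKM for NOP2 to 264 FPKM for NPM1, with a median of 17.8 FPKM, against a median of 5.86 FPKM over the 13609 genes that averaged at least 1 FPKM and were tested. By role, the median gene stood at 14.5 FPKM among 7 RNA polymerase I genes, 97.0 FPKM among 3 abundant nucleolar proteins and 31.7 FPKM among 4 box C/D particle proteins. It stood at 18.4 FPKM among 4 box H/ACA particle proteins, 15.2 FPKM among 11 small subunit factors and 15.99 FPKM among 11 large subunit factors. NOP2, a methyltransferase of the large subunit RNA and the lowest of the 41, had 0.506, 0.167 and 0.371 FPKM with radiation, 0.122, 0.414 and 0.142 with nab-paclitaxel, 0.386, 0.148 and 0.163 in the combination, and 0.268, 0.333 and 0.438 in control libraries. The groups overlapped, each library held 9 to 40 fragments of it, and it did not reach the minimum for testing, which left 40 genes. The annotation places 54.4% of the exon bases of NOP2 also in AC006064.6, a gene on the same strand that was itself at 0.00127 FPKM, so that fragments of both genes may have been set aside in counting, which was not tested.

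Together the 41 genes took the smallest share of a library after radiation alone and the largest after the drug alone. The share of all fragments was 0.490%, 0.497% and 0.501% in the irradiated libraries, 0.612%, 0.592% and 0.584% with nab-paclitaxel, 0.554%, 0.527% and 0.535% in the combination, and 0.575%, 0.546% and 0.540% in control libraries. The irradiated libraries lay below all others and the nab-paclitaxel libraries above all others, while combination and control libraries overlapped. NPM1 alone made up 17.9% to 22.9% of the summed FPKM. Without it the sum was 954, 959 and 970 FPKM with radiation, 1287, 1201 and 1170 FPKM with nab-paclitaxel, 1109, 1054 and 1101 FPKM in the combination, and 1114, 1060 and 1057 FPKM in control libraries, with radiation again lowest, nab-paclitaxel highest, and combination and control overlapping. Gene by gene, 33 of 40 had their lowest group mean with radiation alone and 31 of 40 their highest with nab-paclitaxel alone.

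**Figure D1:**
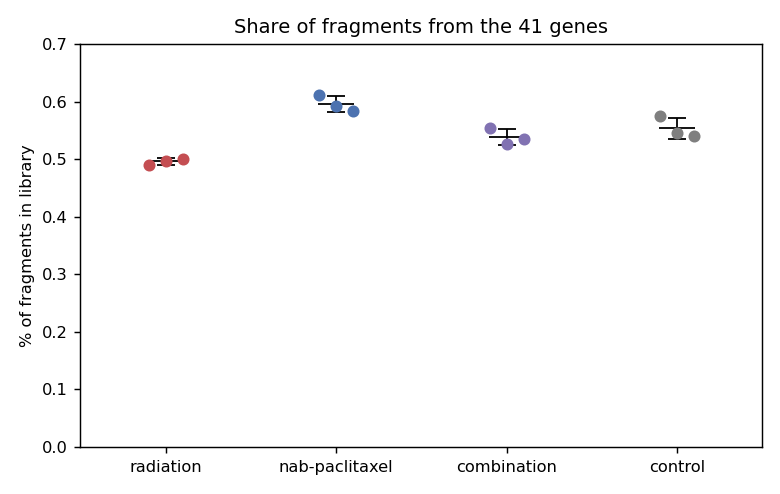
Share of each library's fragments that came from the 41 ribosome biogenesis genes, in percent, by group; points are libraries, bars the mean and SD of 3. The irradiated libraries sit at 0.490% to 0.501%, below every other library, and the nab-paclitaxel libraries at 0.584% to 0.612%, above every other.

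The promoters of the 5 members that passed the test against control cells in at least 1 treatment are shown. These 5 carry the calls against control and fall into those with and those without the motif that MYC and its partner MAX bind. They were picked by their calls, so how the motif falls among them carries no test. NOLC1, called only in the combination against radiation, had no RefSeq window. The sequences are the 100 bases before and the 20 bases from the RefSeq transcription start (GRCh38.p14), in the direction of the gene. Capitals mark CACGTG, the canonical E-box, which reads the same on both strands. NCL lies on the minus strand at chr2:231464465-231464584, DKC1 on the plus strand at chrX:154762764-154762883, UBTF on the minus strand at chr17:44220863-44220982, FBL on the minus strand at chr19:39846360-39846479 and NOP10 on the minus strand at chr15:34343117-34343236.
NCL: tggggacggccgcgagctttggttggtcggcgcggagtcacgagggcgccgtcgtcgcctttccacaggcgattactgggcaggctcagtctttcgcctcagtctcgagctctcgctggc
DKC1: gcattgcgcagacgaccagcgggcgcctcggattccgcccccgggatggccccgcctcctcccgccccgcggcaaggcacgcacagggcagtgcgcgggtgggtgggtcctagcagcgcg
UBTF: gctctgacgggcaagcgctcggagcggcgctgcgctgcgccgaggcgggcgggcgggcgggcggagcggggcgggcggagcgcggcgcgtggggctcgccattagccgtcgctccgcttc
FBL: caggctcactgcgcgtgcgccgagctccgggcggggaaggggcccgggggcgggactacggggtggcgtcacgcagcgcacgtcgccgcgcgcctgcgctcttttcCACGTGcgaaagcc
NOP10: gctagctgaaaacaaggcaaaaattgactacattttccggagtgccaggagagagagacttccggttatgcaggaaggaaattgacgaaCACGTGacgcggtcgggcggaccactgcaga
FBL has the motif from base 7 after the start, and NOP10 has it 11 bases before the start and again, outside the stretch shown, 170 bases before. Over the whole window from 250 bases before to 50 after the start, 15 of the 32 members with a RefSeq promoter held the motif (46.9%), against 1175 of 9200 tested genes (12.8%) and 2396 of 27305 genes of the table (8.78%). No RefSeq window was used for MYC, POLR1E, NOLC1, NOP58, RRP12, BOP1, RRP1B, DDX18 and RRS1. The windows of NCL, DKC1 and UBTF held no CACGTG, which says only that these letters are not there.

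Radiation alone lowered 3 of 40 members and raised 0. The 3 were the rDNA-binding transcription factor UBTF, the nucleolar protein NCL and the pseudouridine synthase DKC1. In limma's moderated test on log2(FPKM + 1), with Benjamini-Hochberg adjustment over all 13609 genes and a threshold of 0.05, 3.45% of all genes were called lower. The other 37 members did not pass, with log2 fold changes between -0.39 (TAF1D) and 0.16 (NOP10). The shift was small and broad: 36 of 40 members had a negative log2 fold change and the median was -0.12, against 7294 of 13609 genes and a median of -0.02 over all genes. Irradiated libraries also had the largest scaling totals relative to their fragments, and the part of these in the shift was not tested. In 11 members every irradiated library lay below every control library, against 16% of all genes. Under quantile normalization the members' median was -0.06. Without the 3 deviating libraries 11 members were called lower, adding POLR1E, NPM1, NOLC1, FBL, NOP56, NAT10, NOB1 and PES1, where 12.7% of all genes were. Leaving out single libraries left 0 to 4 calls, with 0 without radiation 1, radiation 2 or control 1 and 1 without radiation 3.

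Nab-paclitaxel alone raised 2 of 40 members and lowered 0. They were the methyltransferase FBL and the small H/ACA protein NOP10, and 5.41% of all genes were called higher in this comparison. The other 38 had log2 fold changes between -0.25 (POLR1A) and 0.35 (RRP9). Of the 40, 37 had a positive value and the median was 0.16, against 7628 of 13609 genes and a median of 0.04 over all genes. The median was 0.05 under quantile normalization. In 10 members every drug-treated library lay above every control library, against 15.5% of all genes. The count was again 2 (8.79% of all genes), now FBL and NOLC1, without the 3 deviating libraries. It was 1 without radiation 1, 2 or 3, nab-paclitaxel 1 or 2, combination 3 or control 2 or 3.

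The combination raised 1 of 40 members against control cells, NOP10, where 12.2% of all genes were called higher, and lowered 0. The remaining 39 log2 fold changes ran from -0.38 (TAF1D) to 0.23 (BYSL), with 23 of 40 positive and a median of 0.05, against 0.00 over all genes. No overlap with control libraries was seen for 6 members, 3 higher (NOP10, GAR1, UTP18) and 3 lower (NCL, NOP56, DKC1), against 37.3% of all genes. Without the 3 deviating libraries 13 members were called, where 37.1% of all genes were: POLR1B, RRN3, GAR1, NOP10, UTP18, WDR75 and WDR12 higher, and POLR1A, UBTF, TAF1D, MYC, NCL and NOP56 lower. The count was 2 without nab-paclitaxel 1, 3 without control 2, and 0 without combination 1, combination 3 or control 3.

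Adding the drug to irradiated cells, that is the combination against radiation alone, raised 2 of 40 members, FBL and NOLC1, and lowered 0, where 4.81% of all genes were called higher. The median of the 40 was 0.19 with 36 positive, against 0.03 over all genes with 7439 of 13609 positive. In 20 members every combination library lay above every irradiated library, against 23.9% of all genes. The median was 0.07 under quantile normalization. Without the 3 deviating libraries 19 members were called higher, where 18.8% of all genes were. They were POLR1B, POLR1E, UBTF, RRN3, NCL, NPM1, NOLC1, FBL, RRP9, DKC1, GAR1, NOP10, UTP18, RRP12, NAT10, BYSL, NOB1, PES1 and NIP7. The other polymerase genes POLR1A (-0.07), POLR1C (0.01) and TAF1D (-0.09) did not pass there. The count was 8 without nab-paclitaxel 1, 5 without control 2 and 1 without combination 2. It was 0 without any one of the 3 irradiated libraries, combination 1 or combination 3.

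Adding radiation to drug-treated cells, that is the combination against nab-paclitaxel alone, lowered 2 of 40 members, NCL and DKC1, and raised 0, where 2.7% of all genes were called lower. The median was -0.12 with 32 of 40 negative, against -0.02 over all genes with 7350 of 13609 negative, and it was -0.05 under quantile normalization. In 12 members every combination library lay below every nab-paclitaxel library, against 12.3% of all genes. The members called lower without the 3 deviating libraries were again 2, NCL and UBTF, where 5.81% of all genes were. The count was 0 without combination 3 and 1 without any 1 of the other combination libraries, the nab-paclitaxel libraries, the irradiated libraries or control 3.

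Whether the effect of radiation depended on the drug was asked with the interaction term of the same limma fit. It called 0 of 40 members and 0 of 13609 genes (0%) at a Benjamini-Hochberg adjusted p under 0.05. At an unadjusted p under 0.05 it gave 0 members and 443 genes, and limma's voom on recovered fragments called 0 members too, as did limma's fit without the 3 deviating libraries. The 3 smallest p-values were those of the helicase DDX21 (interaction on the log2 scale 0.21 ± 0.15, SE) and of the polymerase subunits POLR1E (0.17 ± 0.14) and POLR1B (0.15 ± 0.12), each with a limma adjusted p of 1.00. DDX21 had 58.5, 55.6 and 58.6 FPKM with radiation, 70.7, 62.9 and 69.5 with nab-paclitaxel, 62.7, 73.0 and 59.8 in the combination, and 66.3, 80.1 and 63.5 in control libraries. POLR1E had 14.9, 15.1 and 15.96 FPKM with radiation, 17.1, 19.7 and 19.6 with nab-paclitaxel, 19.99, 16.9 and 19.97 in the combination, and 17.8, 15.3 and 18.9 in control libraries. In both genes the irradiated libraries lay below all combination libraries, and the other groups overlapped control. These comparisons share libraries, each using the same control or combination samples as another, so their counts are not independent of each other. Over the 4 groups at once, limma's F test called 10 members, where 25.3% of all genes were called: UBTF, NCL, NOLC1, FBL, NOP56, DKC1, NOP10, PES1, GNL3 and NIP7. That number was 25 without the 3 deviating libraries, where 45.8% of all genes were called.

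**Figure D2:**
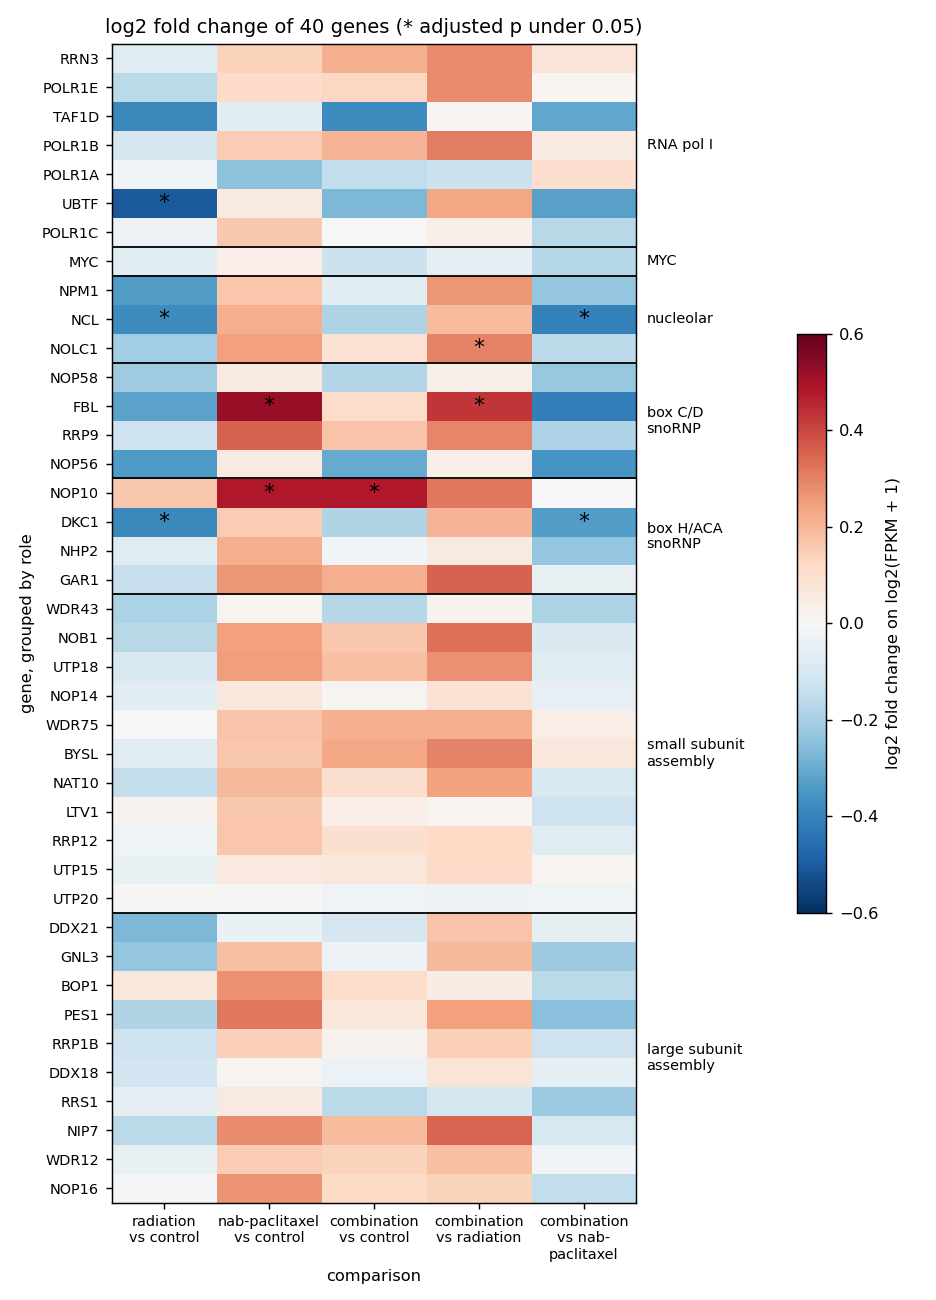
log2 fold change of the 40 tested genes (rows, grouped by role) in 5 comparisons (columns), from blue for lower to red for higher; a star marks an adjusted p under 0.05. The radiation column is mostly blue (36 of 40 negative) and the nab-paclitaxel column mostly red (37 of 40 positive), with a star in 3 and in 2 genes.

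Among the RNA polymerase I genes, UBTF (ENSG00000108312, on the minus strand of chromosome 17 from 44205033 to 44221626, as all gene bounds here in hg38), which bends and opens the ribosomal DNA for the polymerase, had 6.65, 6.63 and 6.66 FPKM in irradiated libraries, 8.79, 11.5 and 10.6 with nab-paclitaxel, 8.73, 6.53 and 8.89 in the combination, and 10.6, 8.62 and 10.3 in control libraries. The irradiated libraries were nearly equal and lay below all control and nab-paclitaxel libraries, while the lowest library of each other group was one of the 3 that stood apart. UBTF fell with radiation by 0.50 ± 0.13 on the log2 scale (SE, limma, Benjamini-Hochberg adjusted p = 0.0377). Its adjusted p ran from 3.98e-04 to 0.139 over 22 alternatives and passed in 13. It was between 0.0550 and 0.124 without any 1 of the 3 irradiated libraries, nab-paclitaxel 3, control 1 or control 3. In the combination UBTF was at 8.05 ± 1.32 FPKM, against 9.87 ± 1.09 FPKM in control cells (SD, n = 3 each), a log2 fold change of -0.27 that did not pass.

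The remaining polymerase genes did not pass in any of the 5 comparisons with all 12 libraries. Without the 3 deviating libraries POLR1E was called lower with radiation. POLR1B and RRN3 were then called higher, and POLR1A and TAF1D lower, in the combination against control. POLR1B, POLR1E and RRN3 were then called higher in the combination against radiation alone. The shares of all genes in that fit are given above. RRN3, the initiation factor that brings the polymerase to the promoter, was the highest of the group, at 31.5 ± 1.36 FPKM with radiation, 36.7 ± 4.47 with nab-paclitaxel, 38.6 ± 2.22 in the combination and 33.2 ± 3.44 in control cells (SD, n = 3 each). POLR1B, the second largest subunit, had 13.0, 12.7 and 12.5 FPKM in irradiated libraries, 15.7, 14.2 and 16.4 with nab-paclitaxel, 15.0, 17.2 and 15.9 in the combination, and 12.9, 15.3 and 13.1 in control libraries. All combination libraries of POLR1B exceeded the irradiated ones (log2 fold change 0.31 ± 0.09, limma adjusted p = 0.0549), and among the control libraries only control 2 reached the combination range. POLR1A, the largest subunit, had log2 fold changes of -0.02, -0.25 and -0.15 with radiation, the drug and both. POLR1E, a subunit particular to this polymerase, had -0.16, 0.11 and 0.12 in the same order, and POLR1C, shared with RNA polymerase III, had -0.03, 0.16 and 0.00. TAF1D, a subunit of the promoter selectivity factor, was lowest in both irradiated groups, at 13.3 ± 0.382 FPKM with radiation and 13.5 ± 1.97 in the combination, beside 17.12 ± 3.797 with nab-paclitaxel and 17.96 ± 3.994 in control cells. Control 2, at 22.4 FPKM, and nab-paclitaxel 1, at 21.4 FPKM, set much of that spread.

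MYC (ENSG00000136997), in the top 2% of tested genes by level (percentile 98.3), changed little. It had 98.5, 99.97 and 97.0 FPKM in irradiated libraries, 112, 104 and 104 with nab-paclitaxel, 93.6, 90.9 and 99.0 in the combination, and 105, 97.1 and 109 in control libraries. In the 5 comparisons the groups overlapped except that every combination library lay below every nab-paclitaxel library (log2 fold change -0.17 ± 0.07, limma, Benjamini-Hochberg adjusted p = 0.253). Against control cells the log2 fold changes were -0.07 with radiation, 0.04 with nab-paclitaxel and -0.13 in the combination, none past the test. MYC was called lower in the combination against control without the 3 deviating libraries (-0.15, limma adjusted p = 0.0427).

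Of the 3 abundant nucleolar proteins NCL passed the test in 2 comparisons, NOLC1 in 1 and NPM1 in 0. NCL (nucleolin, ENSG00000115053, minus strand of chromosome 2, 231453531 to 231483641), which binds the precursor RNA and the chromatin of the rDNA, had 76.7, 77.6 and 80.0 FPKM with radiation, 127, 116 and 114 with nab-paclitaxel, 91.8, 86.1 and 90.1 in the combination, and 107, 102 and 97.1 in control libraries. The 4 groups did not overlap at all: radiation lowest, then the combination, then control, then nab-paclitaxel. NCL fell with radiation by 0.38 ± 0.07 on the log2 scale (limma, Benjamini-Hochberg adjusted p = 0.0120) and was lower in the combination than with nab-paclitaxel alone (-0.41 ± 0.07, adjusted p = 0.0120). The differences of 0.22 between nab-paclitaxel and control and of -0.19 between the combination and control did not pass. The call against control passed in 18 of 22 alternatives and was lost without radiation 1, radiation 2 or control 1 (adjusted p between 0.0516 and 0.0661) and under quantile normalization (log2 fold change -0.21), and the call against nab-paclitaxel was lost without combination 3 (0.0561).

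NPM1 (nucleophosmin, ENSG00000181163), a histone and assembly chaperone and the highest of the 41, had 212, 208 and 227 FPKM with radiation, 383, 272 and 272 with nab-paclitaxel, 257, 267 and 254 in the combination, and 280.3, 294 and 243 in control libraries. The irradiated libraries lay below all others, and nab-paclitaxel 1 stood far above the other libraries of its group. The log2 fold change with radiation was -0.33 ± 0.13 (limma adjusted p = 0.168). NOLC1, a scaffold that gathers snoRNA particles in the nucleolus and in Cajal bodies (ENSG00000166197), had 65.8, 63.3 and 66.8 FPKM with radiation, 88.0, 91.2 and 90.8 with nab-paclitaxel, 81.4, 75.3 and 85.0 in the combination, and 77.9, 76.8 and 72.4 in control libraries. Irradiated libraries were lowest and nab-paclitaxel libraries highest without overlap, and combination and control libraries overlapped. NOLC1 was higher in the combination than with radiation alone by 0.30 ± 0.07 on the log2 scale (limma, Benjamini-Hochberg adjusted p = 0.0312). That call passed in 14 of 22 alternatives. It was lost without any 1 of the irradiated libraries, combination 1 or combination 3 (adjusted p between 0.0901 and 0.134) and under quantile normalization (log2 fold change 0.10).

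**Figure D3:**
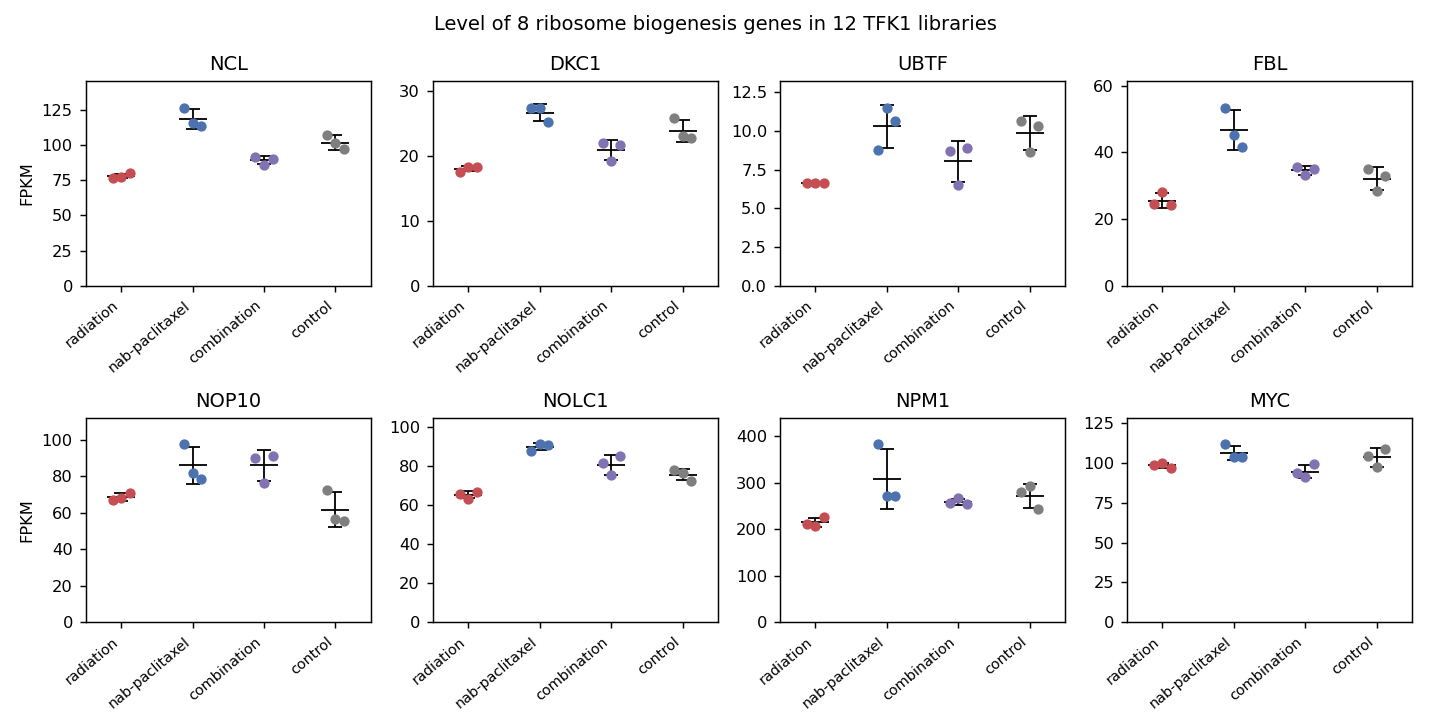
Level in FPKM of 8 genes in the 12 libraries, by group; points are libraries, bars the mean and SD of 3, and each axis starts at 0. NCL separates all 4 groups, UBTF lies at 6.63 to 6.66 FPKM in the 3 irradiated libraries, and MYC stays between 90.9 and 112 FPKM.

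In the box C/D particles, which guide ribose methylation, the 4 genes placed in this group here did not move as one. FBL (fibrillarin, ENSG00000105202, minus strand of chromosome 19, 39834458 to 39846414) is the methyltransferase, and its promoter above holds the E-box just after the start. It had 24.5, 27.9 and 24.0 FPKM with radiation, 53.3, 45.1 and 41.7 with nab-paclitaxel, 35.6, 33.2 and 35.0 in the combination, and 35.0, 28.4 and 33.0 in control libraries. Nab-paclitaxel libraries were above all others and irradiated libraries below all others. FBL rose with nab-paclitaxel by 0.52 ± 0.11 on the log2 scale, 1.44-fold (limma, Benjamini-Hochberg adjusted p = 0.0168), and this passed in 21 of 22 alternatives, the exception being the fit of only those 2 groups (0.149). It was also higher in the combination than with radiation alone, by 0.43 ± 0.11 (adjusted p = 0.0364), a call lost without any 1 of the 6 libraries compared (0.0598 to 0.136). The difference of -0.32 between radiation and control did not pass.

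NOP56 and NOP58, the paired scaffold proteins of the same particle, stayed near control levels with the drug alone. NOP56 had 22.9, 24.3 and 25.7 FPKM with radiation, 31.6, 32.3 and 32.5 with nab-paclitaxel, 26.9, 22.1 and 26.1 in the combination, and 35.9, 27.3 and 30.2 in control libraries. Both irradiated groups lay below all libraries of the other groups. The log2 fold changes of NOP56 were -0.34, 0.05 and -0.30 with radiation, the drug and both, none past the test (limma adjusted p = 0.0905, 0.790 and 0.0626). NOP58 had 33.5, 31.3 and 35.3 FPKM with radiation, 48.3, 36.5 and 37.0 with nab-paclitaxel, 35.4, 35.8 and 31.6 in the combination, and 38.9, 43.7 and 34.3 in control libraries, with overlap between most groups. RRP9, which recognises the snoRNA of the first precursor cuts, had log2 fold changes of -0.12, 0.35 and 0.17 in that order of treatments.

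The box H/ACA particles, which guide pseudouridylation and also stabilise telomerase RNA, held 2 of the called genes, DKC1 and NOP10, called in different comparisons. With nab-paclitaxel against control all 4 genes of the group had positive log2 fold changes. DKC1 (dyskerin, ENSG00000130826, plus strand of chromosome X, 154762742 to 154777689), the enzyme, had 17.5, 18.2 and 18.2 FPKM with radiation, 27.4, 27.3 and 25.1 with nab-paclitaxel, 21.9, 19.1 and 21.6 in the combination, and 25.7, 23.0 and 22.7 in control libraries. Irradiated libraries lay below the combination and these below control, without overlap. DKC1 fell with radiation by 0.39 ± 0.08 on the log2 scale (limma, Benjamini-Hochberg adjusted p = 0.0169), a call lost without any 1 of the irradiated libraries or control 1 (0.0662 to 0.0802). It was lower in the combination than with nab-paclitaxel by -0.34 ± 0.08 (adjusted p = 0.0424), which passed in 5 of 22 alternatives and was lost in 10 of 12 removals of a single library (0.0565 to 0.144), the exceptions being control 1 and control 2.

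NOP10 (ENSG00000182117, minus strand of chromosome 15, 34341713 to 34343177), a short protein that clamps the enzyme to its guide, had 66.7, 68.2 and 70.8 FPKM with radiation, 97.3, 81.7 and 78.6 with nab-paclitaxel, 90.0, 76.2 and 91.2 in the combination, and 72.6, 56.7 and 55.4 in control libraries. Both groups with the drug lay above all control libraries, and irradiated libraries lay within the control range. NOP10 rose with nab-paclitaxel by 0.48 ± 0.12 on the log2 scale (limma, Benjamini-Hochberg adjusted p = 0.0341) and in the combination by 0.48 ± 0.12 (adjusted p = 0.0152), 1.39-fold in each. The first passed in 9 of 22 alternatives and the second in 18. The first was lost without any 1 of the irradiated libraries, nab-paclitaxel 1 or 2, combination 3 or control 2 or 3 (0.0502 to 0.106), and the second without combination 1, combination 3 or control 3 (0.0569 to 0.0640). GAR1 and NHP2, the remaining core proteins, had log2 fold changes of -0.14 and -0.07 with radiation, 0.26 and 0.22 with nab-paclitaxel, and 0.22 and -0.02 in the combination, none past the test. The exons of NHP2 overlap RMND5B on the other strand over 27.4% of their bases, and its libraries spread widely (14.3 ± 4.75 FPKM in control cells, SD, n = 3).

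No small subunit assembly factor passed the test in any of the 5 comparisons, where the shares of all genes given above were 2.7% to 12.2%. Without the 3 deviating libraries NAT10 and NOB1 were called lower with radiation (12.7% of all genes). UTP18 and WDR75 were then called higher in the combination against control (37.1% in either direction). Against radiation alone UTP18, RRP12, NAT10, BYSL and NOB1 were then called higher in the combination (18.8%). With nab-paclitaxel all 11 had positive log2 fold changes, with a median of 0.16 and the highest values in NOB1, the nuclease that makes the final cut of the small subunit RNA, and UTP18, a scaffold of the early precursor (0.25 each). NOB1 had 25.8, 25.4 and 26.6 FPKM with radiation, 33.1, 36.3 and 35.6 with nab-paclitaxel, 33.0, 29.4 and 36.6 in the combination, and 32.6, 23.9 and 32.2 in control libraries. Control 2 was the lowest of all 12 and made the control range contain every irradiated library. With radiation the median of the 11 was -0.07 (9 negative), and the lowest was WDR43, a scaffold needed for early precursor transcription, at -0.19. In the combination the median was 0.10, led by BYSL (0.23) and WDR75 (0.21). The acetyltransferase NAT10 had -0.14, 0.20 and 0.10 with radiation, the drug and both, and the export factors RRP12 (-0.02, 0.17 and 0.10) and LTV1 (0.02, 0.16 and 0.04) varied less. NOP14 (-0.07, 0.07 and 0.02), UTP15 (-0.05, 0.06 and 0.07) and UTP20 (0.01, 0.01 and -0.02), scaffolds of the small subunit precursor, stayed within 0.08 of control in every treatment.

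Among the 10 large subunit assembly factors tested, again none passed in the 5 comparisons, beside the same shares of all genes. Without the 3 deviating libraries PES1 was called lower with radiation and WDR12 higher in the combination against control. PES1 and NIP7 were then called higher in the combination against radiation alone. PES1, BOP1 and WDR12 form a complex needed to process the large subunit RNA. PES1 had 15.6, 17.3 and 16.5 FPKM with radiation, 24.6, 24.3 and 22.1 with nab-paclitaxel, 21.3, 17.0 and 21.1 in the combination, and 20.3, 15.96 and 20.5 in control libraries. The nab-paclitaxel libraries of PES1 were above all others (log2 fold change 0.32 against control, limma adjusted p = 0.0989), while control 2 and combination 2 lay among the irradiated ones. BOP1 and WDR12 had log2 fold changes of 0.27 and 0.15 with nab-paclitaxel and of 0.07 and -0.04 with radiation. NIP7 had 6.78 ± 0.269 FPKM with radiation, 9.64 ± 1.45 with nab-paclitaxel, 8.90 ± 0.373 in the combination and 7.725 ± 1.04 in control cells (SD, n = 3 each). With all 12 libraries it passed only the F test over the 4 groups (limma adjusted p = 0.0365), as did PES1 and GNL3 (0.0351 and 0.0435).

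The nucleolar GTPase GNL3 (nucleostemin) had 48.1, 46.6 and 48.5 FPKM with radiation, 73.5, 59.1 and 59.8 with nab-paclitaxel, 52.3, 57.4 and 54.7 in the combination, and 57.4, 60.3 and 51.2 in control libraries, with the irradiated libraries below all others. The helicase DDX21, which acts in both polymerase I transcription and RNA processing, had a log2 fold change of -0.27 with radiation, -0.04 with nab-paclitaxel and -0.10 in the combination, and DDX18, a related helicase, -0.11, 0.02 and -0.04. The assembly factors RRS1 (-0.06, 0.06 and -0.16), RRP1B (-0.12, 0.14 and 0.02) and NOP16 (-0.01, 0.27 and 0.12) completed the set, in the same order of treatments. Exons of NIP7 and NOP16 overlap genes on the other strand over 20.2% and 19.95% of their bases, and it is not stated whether counting used the strand.

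Of the 40 tested members 8 carry snoRNA genes within their bounds on the same strand, 20% against 1.86% of the 11237 protein-coding genes tested. They are TAF1D (8 snoRNA genes), GNL3 (6), NOP56 (5), NOP58 (4), NCL (3), WDR43 (3), DKC1 (2) and POLR1C (1 small Cajal body RNA gene), 32 in all. Such genes release a guide RNA from an intron when they are spliced. Relative to control these 8 had a median log2 fold change of -0.28 with radiation (8 of 8 negative), 0.10 with nab-paclitaxel (7 of 8 positive) and -0.18 in the combination (8 of 8 negative). The other 32 had medians of -0.08 (28 negative), 0.16 (30 positive) and 0.10 (23 positive). So in the combination the log2 fold changes of the 8 were all negative, from -0.38 to -0.00417, while most of the others were positive. Only NCL, NOP56 and DKC1 of the 8 had every combination library below every control library, and 0 of the 8 passed the test. Between the combination and radiation alone the medians were 0.04 for the 8 and 0.22 for the 32, and the median of the 8 turned to -0.01 with TPM scaling and to -0.05 under quantile normalization (5 of 8 negative in each). Over 21 alternatives the combination median ran from -0.26 to -0.15 for the 8 and from 0.03 to 0.14 for the 32. With nab-paclitaxel the median of the 8 turned to -0.05 under quantile normalization, where the 32 had their lowest median of 0.07. The 201 other protein-coding genes with a snoRNA gene inside had medians of -0.13, 0.07 and -0.05 with radiation, the drug and both. The split comes from the GENCODE annotation and carries no test.

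Of the 3 members called lower with radiation, where 3.45% of all genes were, 2 were among these 8 (NCL and DKC1) and 1 among the 32. Without the 3 deviating libraries it was 3 of the 8 and 8 of the 32, against 12.7% of all genes. Of the 201 other protein-coding genes with a snoRNA gene inside, 16 were called lower with radiation and 15 in the combination against nab-paclitaxel. Of the members called lower in the combination against nab-paclitaxel, where 2.7% of all genes were, 2 were among the 8 and 0 among the 32. Without the 3 deviating libraries it was 1 and 1, against 5.81% of all genes. In the combination against control 0 of the 8 and 1 of the 32 were called, the 1 higher, as were 12.2% of all genes. Without those libraries 3 of the 8 were called lower, and 7 of the 32 higher and 3 lower, against 37.1% of all genes in either direction. With all 12 libraries, 20 of the 201 other genes with a snoRNA gene inside were called higher and 22 lower in the combination against control. Of all 13609 genes 1666 were called higher and 1445 lower there, similar shares. All 18 snoRNA genes that overlap an exon of their host were listed at 0 FPKM in every library, and 13 of the 14 that lie in introns only were above 0, up to 12.9 FPKM for SNORD6 in TAF1D. The part of library type and of counting rules in these zeros was not tested.

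**Figure D4:**
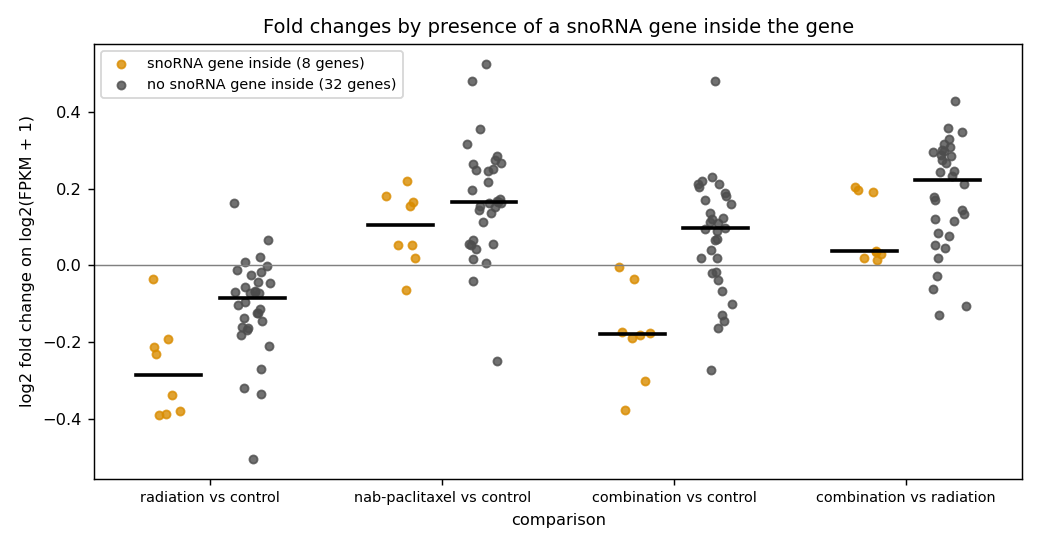
log2 fold change of the 8 members with a snoRNA gene inside (orange) and the 32 without (grey) in 4 comparisons; black bars are medians. In the combination against control the 8 lie below 0 with a median of -0.18 and the 32 have a median of 0.10.

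Members with and without an E-box in the promoter window had similar medians. With nab-paclitaxel the median log2 fold change was 0.19 in the 14 tested members with the motif and 0.15 in the 17 without, and with radiation it was -0.13 and -0.10. In the combination it was 0.08 with the motif and 0.00 without, and between the combination and radiation alone 0.24 and 0.19. No test was run on this split.

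Further genes of the pathway were read from lists of known components. Of all 13609 genes 337 were called higher and 470 lower with radiation, 736 and 464 with nab-paclitaxel, and 1666 and 1445 in the combination. Of 16 other RNA polymerase I genes, 0 changed with radiation. With nab-paclitaxel 2 rose, the polymerase subunit gene CD3EAP (0.45) and POLR2H (0.43), a subunit shared by all 3 nuclear polymerases. In the combination 3 rose (POLR2K 0.67, POLR2H 0.41 and CD3EAP 0.32) and the promoter factor subunit TAF1C fell by 0.62 on the log2 scale. TAF1C stood at 9.53 FPKM in the combination, against 15.2 FPKM in control cells. Of 44 other small subunit assembly genes 0 changed with radiation, 2 rose with nab-paclitaxel (AATF 0.45, UTP6 0.35), and in the combination 5 of 44 rose, led by UTP6 (0.66), where 12.2% of all genes did, and KRR1 fell by 0.51. Of 50 other large subunit assembly genes 0 changed with radiation, 4 rose with nab-paclitaxel (PA2G4, DDX24, ZNF622 and MRTO4, 0.27 to 0.46) and 5 of 50 rose in the combination, again no larger a share than over all genes, among them SBDS (0.59), whose product releases the last factor from the large subunit. The medians of these 3 lists were 0.00, -0.01 and -0.04 with radiation, 0.20, 0.19 and 0.14 with nab-paclitaxel and 0.08, 0.14 and 0.05 in the combination. All 3 lists thus had a median within 0.04 of 0 with radiation, where the members had -0.12. Members without a snoRNA gene inside had -0.08, and the 201 other protein-coding genes with one had -0.13. Members and lists were chosen with earlier results of these data known, so the difference does not set the members apart.

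The 25 tested RNA exosome and trimming genes held the largest change against control in the 7 lists. EXOSC6, a core subunit of the exosome, was at 24.7 FPKM with radiation, 19.97 with nab-paclitaxel, 12.9 in the combination and 33.0 in control cells, and it fell by 1.28 in the combination and by 0.70 with nab-paclitaxel. With radiation 1 of the 25 fell (EXOSC2), with nab-paclitaxel 1 rose (EXOSC4) and 1 fell, and in the combination 2 rose and 3 fell. Of all 13609 genes 807 changed with radiation, 1200 with nab-paclitaxel and 3111 in the combination, so these counts and those of the next list do not set the lists apart. Of 23 RNA polymerase III genes, which make the small ribosomal RNA and tRNAs, 0 changed with radiation, 2 rose (POLR3K 0.39, GTF3A 0.40) and 1 fell (BDP1) with nab-paclitaxel, and 2 rose (POLR3GL 0.79, GTF3A 0.34) and 2 fell in the combination. Medians of the exosome and polymerase III lists were -0.04 and -0.03 with radiation, 0.17 and 0.09 with nab-paclitaxel, and 0.11 and 0.06 in the combination.

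Among 15 MYC partners and antagonists, MYCL fell by 0.66 with radiation and by 0.53 in the combination, to 4.15 and 4.65 FPKM, against 7.13 FPKM in control cells. MXD3, a MAX partner that opposes MYC, fell by 0.39 with nab-paclitaxel and by 0.59 in the combination, where FBXW7, which marks MYC for degradation, rose (0.25). Of the 15 genes 1 changed with radiation, 1 with nab-paclitaxel and 3 in the combination, against 807, 1200 and 3111 of all 13609 genes. The list's medians were -0.03, -0.04 and -0.05 with radiation, the drug and both. The 19 nucleotide and polyamine synthesis genes, many of them known MYC targets, had a median of -0.15 with radiation (2 fell, PAICS and GART of purine synthesis). Their median was 0.21 with nab-paclitaxel (2 rose, SMS 0.60 and ODC1 0.33 of polyamine synthesis) and 0.06 in the combination (2 rose, SMS 0.58 and UMPS 0.30).

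**Figure D5:**
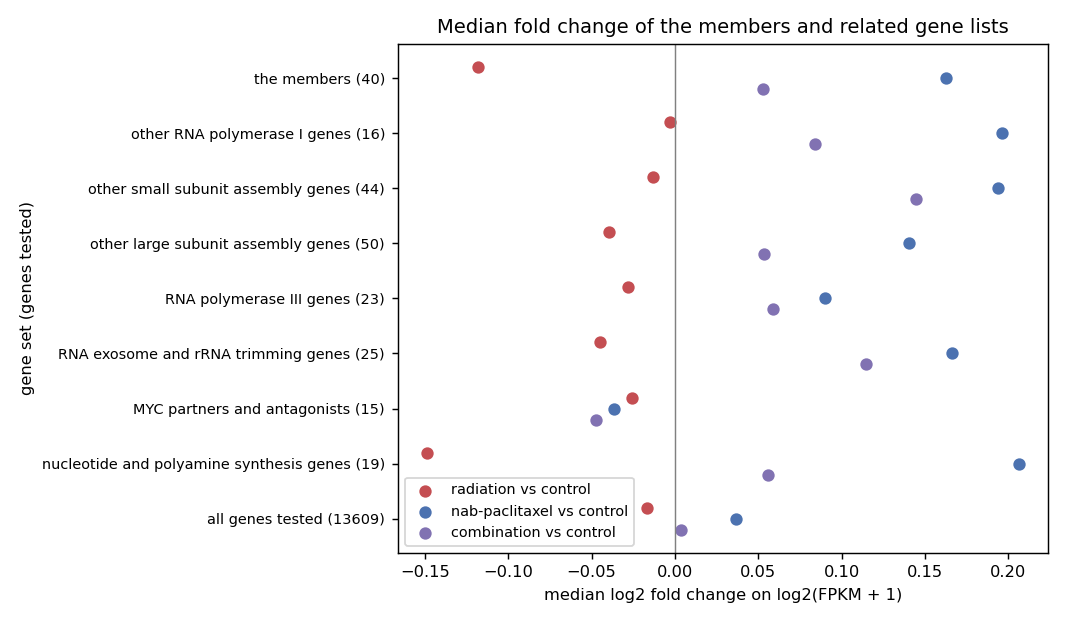
Median log2 fold change against control of the 40 members, 7 related gene lists and all 13609 genes tested, for radiation (red), nab-paclitaxel (blue) and the combination (purple); the number of genes stands in brackets. With radiation the members (-0.12) and the nucleotide and polyamine genes (-0.15) lie to the left of the other lists.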

How the data were processed

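The authors deposited 1 table of FPKM values for 58735 genes and 12 samples, with gene lengths, per the file headers; the submitters' processing notes name hg38 as the build, and libraries came from a SMARTer mRNA kit, per the labels' protocols. Neither aligner nor counter nor use of strand is named in the sources used here. All 41 members had the coordinates and exon length of GENCODE release 29. FPKM times length gave whole multiples for 100% of values (within 0.05), from which fragments were recovered. Samples were grouped by title. Genes averaging at least 1 FPKM (13609) were fitted as log2(FPKM + 1) with limma 3.58.1 in R 4.3.3, 4 groups in 1 fit with a mean-variance trend (8 residual and 3.39 prior degrees of freedom), Benjamini-Hochberg adjusted, threshold 0.05. Values in every library are given for MYC, the highest and lowest member, NOP56, NOP58, members past the test without overlap and the 3 smallest p of the interaction, and for NOB1, PES1 and GNL3, named after their values were seen. Members and lists were chosen with earlier results of these data known. In simulated data fitted over 13518 genes, log2 changes of 0.5, 1 and 2 were set in 66, 61 and 64 genes. Of these 28.8%, 83.6% and 100% were called for radiation against control. Spread was drawn separately for each gene and library, so a deviation shared by many genes of a library was not simulated. Each group has 3 samples, and fragment numbers cover counting error only. Of the listed symbols SKIV2L2 was not matched. Deviations of same-numbered combination and control samples correlated at r = 0.233, 0.543 and 0.172, and for no other pair of groups were all 3 above 0.1. For numbers 1 and 3 a sample of another number correlated more (0.289 and 0.224). The 0.543 belonged to combination 2 and control 2, both deviating libraries, so no pairing is shown. Promoters were searched with Python 3.11.15. Alternatives were another pseudocount, filter, scaling (TPM, quantile) or fit, voom on fragments, a replicate block and leaving out libraries.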

Additional observations from a re-analysis of the deposited data

How the results depend on the processing

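The number of members called was recomputed under the alternatives, and the cause of each change was not tested. Without a filter on low values it was 4 in the F test over 4 groups and 1 in the combination against radiation, the combination against nab-paclitaxel and nab-paclitaxel against control. With TPM scaling it was 1 for radiation, 1 for nab-paclitaxel, 1 for the combination against nab-paclitaxel and 0 for the combination against radiation. Quantile normalization gave 6 in the F test, 4 for the combination against control (1 higher, 3 lower), and 1 each for nab-paclitaxel against control, the combination against nab-paclitaxel and the combination against radiation, the last being MYC, lower (-0.30), where the 2 calls reported were higher. With a replicate block the counts were 0 for the combination against radiation and 1 for the combination against nab-paclitaxel, 2 for radiation (UBTF no longer passed) and 8 in the F test, with no change in the others. No pair of groups was shown to be paired by number, and the count for the combination against control stayed at 1. Without a trend the combination against nab-paclitaxel gave 1. Fitting only the groups compared gave 13 for the combination against radiation and 0 for nab-paclitaxel, the combination and the combination against nab-paclitaxel. Without the 3 deviating libraries counts were 25 (F test), 11 (radiation), 13 (combination) and 19 (combination against radiation). Leaving out 1 library at a time gave 0 to 4 calls for radiation, 1 to 2 for nab-paclitaxel, 0 to 3 for the combination, 0 to 8 for the combination against radiation, 0 to 3 for the combination against nab-paclitaxel, 0 to 0 for the interaction and 4 to 13 in the F test. MYC changed sign with nab-paclitaxel under quantile normalization (-0.16), without control 2 (-0.00262, in a range up to 0.0775 over removals of single libraries) and without the 3 deviating libraries (-0.037), with radiation under quantile normalization (0.11), and in the interaction without those libraries (0.00376). Of simulated log2 changes of 0.5, 28.8% were called for radiation against control, and smaller changes were not simulated.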
